A study of Homo sapiens with 12 samples.

Results

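YT cells that carried the high-affinity, non-cleavable CD16 receptor (hnCD16) were compared with YT cells that carried eGFP alone (CTRL) by RNA-seq, with 3 libraries in each group. YT is an established human cell line that the labels call NK-like. Both groups had been infected with a lentiviral vector, were selected by sorting for eGFP and were sequenced without stimulation, so the control cells also carried a vector. According to the study's methods, hnCD16 is a CD16a with a change that raises antibody affinity and another that blocks shedding, and its expression was driven by the constitutive hEF1A promoter. These 6 libraries are part of a series of 12 in 4 groups. The genes described are the 12069 of 17589 in the deposited table that had at least 10 counts in each of the 6 libraries. They were chosen by level alone and not by any difference between the groups. The labels do not say whether replicates were separate cultures, so p-values measure the spread between these libraries, which may be technical.

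CD16a is the Fc receptor through which NK cells recognise antibody-coated targets. Its own tail lacks the immunoreceptor tyrosine-based activation motif (ITAM), and it signals through the partner chains CD247 and FCER1G. The phosphorylated motifs of these chains recruit SYK and ZAP70, followed by the adaptors LAT and LCP2, phospholipase C and the VAV exchange factors. Kinases of the SRC family such as LCK and FYN start the cascade, whereas CSK, CBL, PTPN6 and the UBASH3 proteins restrain it. In a resting culture the question of the comparison is what the receptor changes without antibody.

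The receptor transcript separated the groups completely. FCGR3A, which encodes CD16a and lies at GRCh38 chromosome 1 from 161541759 to 161550968, had 0 counts in all 3 CTRL libraries and 480, 453 and 462 counts in the 3 hnCD16 libraries. Against a floor of 3 counts per library it was at least 166-fold higher. Its near-identical neighbour FCGR3B had 0 counts in CTRL and 48, 64 and 47 in hnCD16, and the values of both are uncertain because the counting can split reads between such copies. Being absent from CTRL, neither belongs to the 12069 genes. The partner chain CD247 was at 80.8, 81.5 and 73.1 CPM (counts scaled to an equal library size) in CTRL and 85.6, 80.7 and 79.6 CPM in hnCD16, and these ranges overlapped (log2 fold change 0.06 ± 0.05 (SE), edgeR adjusted p = 0.362). FCER1G was near the limit of detection, with 0.255 to 0.647 CPM in CTRL and 0.691 to 1.14 CPM in hnCD16, and these ranges did not overlap. SYK was also scarce, at 0.715 to 0.945 CPM in CTRL and 0.707 to 1.116 CPM in hnCD16.

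The marker genes of the cell type did not all follow the label. Of 12 NK markers, 6 passed the level of 10 counts in every library. They were CD7 (535 to 646 counts), KLRD1 (202 to 267), NKG7 (177 to 256), EOMES (115 to 205), CD244 (115 to 185) and IL2RB (11 to 24). Of the others, NCAM1 (0 to 4 counts), NCR1 (0 to 5), TBX21 (0 to 4) and CD2 (0 to 3) were at or near 0 in all 6 libraries. TYROBP had 2 to 6 counts, and the lytic protein gene PRF1 had only 5 to 13 counts. All 12 T cell markers passed, among them CD3D with 7757 to 9903 counts and BCL11B with 1341 to 1932 counts. Some passed narrowly, such as CD8A with 12 to 27 counts and CD8B with 13 to 22 counts. The erythroid and platelet markers had no member among the 12069 genes, and the B cell, myeloid and epithelial lists had 4, 2 and 5. Of the T cell markers 3 were called higher and 5 lower (median -0.25), and 0 and 3 with the correction (CD4, CD3E and LAT). Of the NK markers CD244 was higher and EOMES lower both ways. Of the B cell and myeloid markers none was called. On the epithelial and kidney line list only GATA3 was called. It stood apart from that list, with 796 to 1175 counts beside 60 to 82 for KRT8 and fewer for every other member. GATA3 was lower and lost its call with the correction. The same markers were present in both groups. All 12 T cell markers but only 6 of 12 NK markers passed, so these markers do not establish an NK identity. The name YT is used here only because it is the label.

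Depth was even. The libraries held 18170370 to 18729053 counts, and 15264 to 15420 genes had a count in each. The scaling factors of the TMM method were 1.05 to 1.11 in CTRL and 0.985 to 1.02 in hnCD16.

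Many genes differed between hnCD16 and CTRL, almost all of them by little. Tested with edgeR (quasi-likelihood, p-values adjusted by Benjamini-Hochberg over all 13657 genes tested), 5795 of the 12069 genes (48.0%) passed an adjusted p of 0.05, and 5872 (43.0%) of all genes tested did. Of these, 2927 (24.3%) were higher and 2868 (23.8%) were lower in hnCD16. Only 16 (0.133%) also reached an absolute log2 fold change of 1, the threshold in the study's methods for a differentially expressed gene (DEG), 8 of them higher and 8 lower (0.0663% each). An absolute log2 fold change below 0.25 was found in 1966 (33.9%) of the called genes and one from 0.25 to 0.5 in 3499 (60.4%). Over all 12069 genes the fold change ran from -0.44 at the 5th percentile to 0.35 at the 95th, around a median of -0.0084. In CPM, the 3 hnCD16 libraries did not overlap the 3 CTRL libraries in 6343 genes (52.6%).

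The balance between higher and lower genes depended on the scaling. Scaled by library size alone, 1483 genes were called higher and 4080 lower, 26.7% higher in place of 50.5%, and the median of all genes moved to -0.12. With limma on log2(TPM + 1), where TPM is a level scaled to transcript length and library size, the calls were 1038 higher and 4350 lower with a median of -0.11. Directions below are those after TMM scaling.

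Requiring 10 counts in every library left out the genes with the steepest changes. Of 1588 tested genes outside the set, 77 were called and 56 were DEGs, and 15 of those DEGs had at most 3 counts in all libraries of one group. Just inside the limit, where the lowest count was 10, there were 93 genes. The most abundant of them was the potassium channel gene KCNA6 with 14, 10 and 18 counts in CTRL and 24, 33 and 39 in hnCD16. Just outside it, with a lowest count of 9, there were 128 genes. The most abundant of these was the transporter gene ABCC11 with 28, 16 and 31 counts in CTRL and 24, 9 and 24 in hnCD16.

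The fold changes followed the base composition of the transcripts. GC content (the share of G and C bases in the canonical GENCODE transcript) was known for 11927 of the genes. Across these genes, which are not independent replicates, the log2 fold change had a Pearson correlation of -0.577 and a Spearman correlation of -0.608 with GC content. When the genes were divided into 10 bins of equal size, the median log2 fold change fell in every step from 0.25 in the bin with 30.7 to 38.2% GC to -0.26 in the bin with 61.5 to 76.0% GC. In the lowest bin 57.8% of genes were called higher and 0.419% lower. In the highest bin 0.754% were called higher and 49.1% lower. Effective length showed a weaker relation, with a Pearson correlation of -0.192 with log2 length, and medians from 0.15 in the bin of the shortest genes (185 to 1247 bases) to -0.097 in the bin of the longest. It was -0.0861 without CTRL replicate 3 and -0.124 without hnCD16 replicate 1. GC content and log2 length were themselves correlated (r = -0.264).

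**Figure D1:**
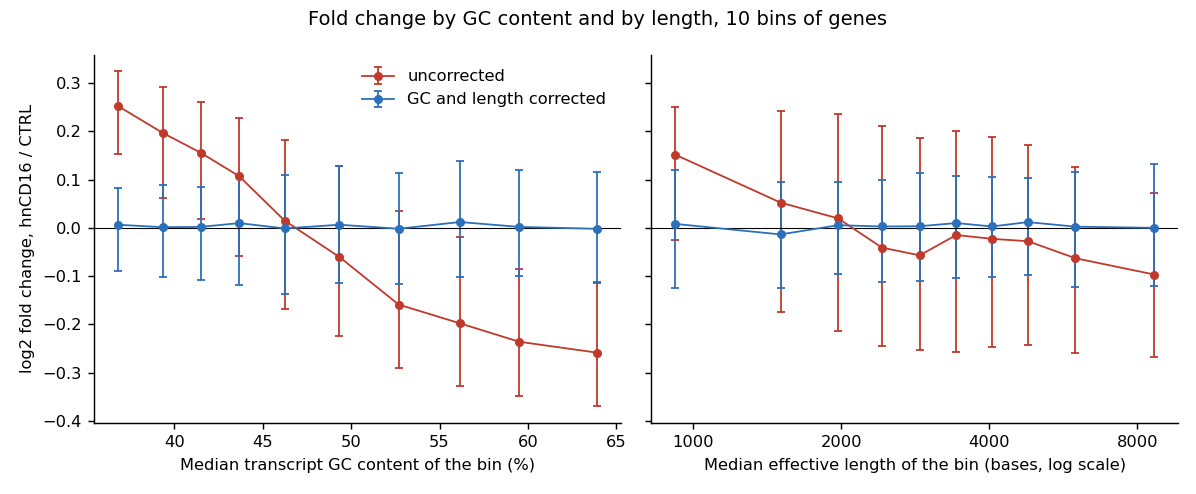
Median log2 fold change of hnCD16 against CTRL (vertical axis) in 10 bins of genes by transcript GC content in percent (left) and by effective length in bases on a log axis (right), without (red) and with (blue) the GC and length correction; bars span the middle 50% of genes in a bin. Without the correction the medians run from 0.25 to -0.26 with GC content and from 0.15 to -0.097 with length.

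Coding sequence from the genes at both ends shows the difference in composition. The choice was made among the 10 strongest risers and 10 strongest fallers (defined below). It left out the riser TNFRSF10D and any gene without a GC value. Of the rest, the riser and the faller with the lowest and with the highest transcript GC content are printed. Each stretch is 120 coding bases from a single exon, picked because its composition was the nearest to that of its whole transcript, 5′ to 3′ on the gene's strand, with G and C in capitals. The riser SLC7A11 (chr4:138236328-138236447, GRCh38, minus strand, exon 2 of 12) had 45 G or C bases in the stretch and 35.4% over the transcript. The riser CHI3L2 (chr1:111230747-111230866, plus strand, exon 3 of 11) had 59 and 49.0%. The faller ENO2 (chr12:6917966-6918085, plus strand, exon 7 of 12) had 65 and 53.9%. The faller IGFBP2 (chr2:216660623-216660742, plus strand, exon 2 of 4) had 79 and 67.4%.
SLC7A11: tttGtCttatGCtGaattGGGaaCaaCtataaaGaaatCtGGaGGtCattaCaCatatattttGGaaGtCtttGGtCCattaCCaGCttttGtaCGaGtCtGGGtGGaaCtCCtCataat
CHI3L2: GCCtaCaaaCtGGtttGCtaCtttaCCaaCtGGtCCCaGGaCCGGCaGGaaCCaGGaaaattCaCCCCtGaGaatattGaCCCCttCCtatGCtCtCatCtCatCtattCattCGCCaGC
ENO2: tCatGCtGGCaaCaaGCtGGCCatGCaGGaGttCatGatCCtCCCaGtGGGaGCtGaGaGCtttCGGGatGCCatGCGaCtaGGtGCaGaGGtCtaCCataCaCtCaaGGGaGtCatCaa
IGFBP2: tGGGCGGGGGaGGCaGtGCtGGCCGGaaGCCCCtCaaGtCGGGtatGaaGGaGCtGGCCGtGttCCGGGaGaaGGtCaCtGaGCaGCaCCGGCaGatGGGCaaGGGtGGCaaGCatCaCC
All 4 kept their direction with the correction described next.

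The 6 libraries also separated by composition. A GC index was computed for each library as the median log2 deviation from the mean of the 6 libraries over the genes of the highest GC bin minus that over the lowest. It was 0.343, 0.283 and 0.143 in CTRL replicates 1 to 3 and -0.140, -0.282 and -0.322 in hnCD16 replicates 1 to 3. The groups did not overlap, with means of 0.256 ± 0.103 (SD, n = 3) and -0.248 ± 0.0955 (SD, n = 3), a difference of -0.505 (two-sided exact permutation test, p = 0.1, the smallest this design allows). The length index, longest minus shortest bin, was -0.0467, 0.131 and 0.316 in CTRL and -0.248, -0.152 and 0.00515 in hnCD16, and these ranges overlapped (exact permutation p = 0.2). It rose from replicate 1 to 3 in both groups, and at each replicate number the hnCD16 library had the lower value. Across the 9 pairs of a CTRL with an hnCD16 library, the correlation of the log2 ratio with GC content lay between -0.576 and -0.236, and that with log2 length between -0.409 and 0.102. With all 3 libraries of each group on the same side, a change of composition in the cells' RNA and one made in library preparation cannot be told apart.

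**Figure D2:**
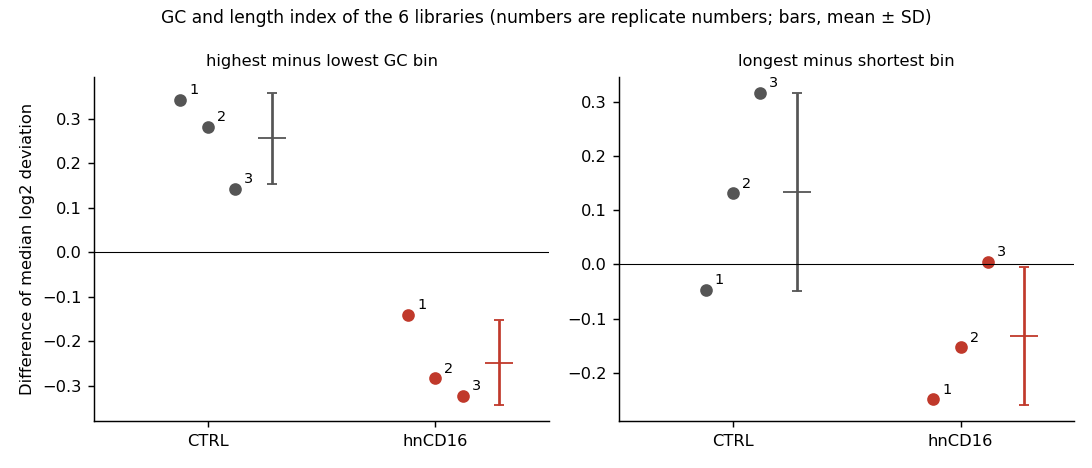
GC index (left) and length index (right) of each of the 6 libraries, as differences of median log2 deviations; points are libraries with their replicate number, bars the mean ± SD of 3. The GC index is 0.143 to 0.343 in CTRL and -0.322 to -0.140 in hnCD16, and the length indices of the groups overlap.

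Each result was therefore also computed with a smooth offset in GC content and length for each library, in a fit of the 6 libraries. Values without the correction come from the fit of 12 libraries unless stated, so the analyses differ in that as well. This correction removes whatever moves with GC content or length, of either origin. With it, 1414 of the 12069 genes (11.7%) were called, 715 higher (5.92%) and 699 lower (5.79%), and 12 were DEGs (0.0994%), 7 higher (0.058%) and 5 lower (0.0414%). The same 6 libraries without the correction gave 5202 calls (43.1%) and 15 DEGs (0.124%), 6 higher (0.0497%) and 9 lower (0.0746%). Called in the same direction both ways were 1087 genes (9.01%), 548 higher and 539 lower, while 59 were called in opposite directions, 4649 only without and 268 only with the correction. The groups' corrected CPM did not overlap in 4075 genes (33.8%). The corrected count fell when libraries were left out, to 298 without hnCD16 replicate 2, 348 without CTRL replicate 2, 711 without hnCD16 replicate 1 and 920 without hnCD16 replicate 3. It was 956 without CTRL replicate 3 and 1389 without CTRL replicate 1. The correction left correlations of 0.0636 with GC content and 0.0361 with log2 length.

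**Figure D3:**
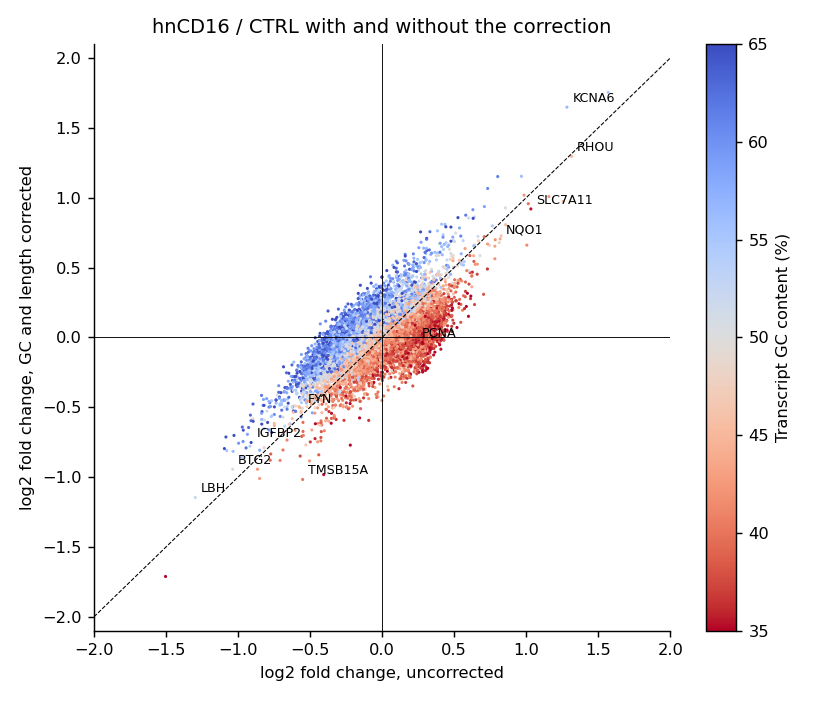
Log2 fold change of hnCD16 against CTRL without (horizontal) and with (vertical) the GC and length correction for 11927 genes, coloured by transcript GC content in percent; the dashed line marks equal values. Low-GC genes lie mostly below the line and high-GC genes mostly above it, while RHOU, SLC7A11, LBH and BTG2 lie far from 0 on both axes.

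In the CD16 signalling list, more genes were lower than higher in hnCD16. Of 41 list members, 24 (58.5%) were called lower and 2 (4.88%) higher, beside 23.8% and 24.3% of all genes, and the median log2 fold change was -0.24. With the correction, 8 (19.5%) were lower and 0 higher, beside 5.79% and 5.92%, and the median was -0.05. The 8 were called lower both ways. They hold an activating kinase, adaptors and restraining proteins.

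FYN, a SRC family kinase, was at 36.5, 34.4 and 34.8 CPM in CTRL and 24.4, 23.6 and 24.0 CPM in hnCD16. Every hnCD16 library was below every CTRL library (log2 fold change -0.55 ± 0.06, adjusted p = 1.16e-05; corrected -0.51, adjusted p = 0.00213). CBL, a ubiquitin ligase that ends receptor signalling, was at 74.6, 74.7 and 74.5 CPM in CTRL and 52.8, 49.7 and 50.5 CPM in hnCD16, again without overlap (-0.55 ± 0.05; corrected -0.41, adjusted p = 0.00507). UBASH3B, a phosphatase that acts on SYK and ZAP70, fell from 62.2, 63.9 and 58.9 to 46.4, 46.8 and 42.1 CPM (-0.45 ± 0.06; corrected -0.44). The adaptors LCP2, GRB2 and LAT had log2 fold changes of -0.25, -0.44 and -0.37 without and -0.30, -0.29 and -0.20 with the correction. For the inhibitory phosphatase PTPN6 and the kinase CSK, which silences SRC family kinases, the values were -0.50 and -0.50 without and -0.29 and -0.23 with it.

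Other members of the cascade lost their call. ZAP70, at 73.3, 83.6 and 75.4 CPM in CTRL and 67.0, 61.2 and 67.8 CPM in hnCD16, had -0.24 ± 0.06 without (adjusted p = 0.005) and 0.04 with the correction (adjusted p = 0.665). VAV1 went from -0.29 to -0.05 and PLCG1 from -0.24 to 0.03. LCK was at -0.32 without and -0.14 with it (adjusted p = 0.0618). VAV2, the lowest of the list at -0.62 ± 0.15 (adjusted p = 0.00452), had -0.32 with an adjusted p of 0.126. The 2 genes that were called higher, PTPRC (0.31) and PTPN22 (0.31), have GC contents of 38.2% and 36.1% and had 0.14 and 0.04 with the correction, neither called. PTPN11, the most abundant member, was not called either way (0.06 and 0.02).

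Few NK receptors and adaptors were called. Of 18 members, 2 (11.1%) were called higher, beside 24.3% of all genes, and 0 lower (median 0.07, but -0.04 with library size scaling), and with the correction 1 was higher (median 0.05). That gene was CD244, the SLAM family receptor 2B4, at 5.88, 6.20 and 6.82 CPM in CTRL and 10.1, 9.99 and 9.46 CPM in hnCD16. It was higher in every hnCD16 library (log2 fold change 0.64 ± 0.08, adjusted p = 2.95e-05; corrected 0.66, adjusted p = 0.00549). CD48, which encodes the ligand of CD244, rose from a lower level, 1.07, 1.201 and 0.647 CPM to 2.88, 1.89 and 2.23 CPM (1.26 ± 0.21, adjusted p = 0.00018; corrected 0.97, adjusted p = 0.0398). SH2D1A, the adaptor that binds the tail of CD244, was called higher at 0.26 ± 0.05 and had -0.04 with the correction.

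Among cytotoxic granule genes, 7 of 17 (41.2%) were called higher and 4 (23.5%) lower (median 0.12, but -0.02 on the TPM scale), and with the correction 1 was higher and 1 lower (median 0.001). The shares of all 12069 genes, for this list and the next ones, were 24.3% higher and 23.8% lower. With the correction they were 5.92% and 5.79%. CTSC, the protease that activates granzymes, rose from 192, 183 and 163 CPM to 236, 236 and 217 CPM (0.36 ± 0.06; corrected 0.22, adjusted p = 0.0132). GZMM, granzyme M, fell from 9.96, 9.71 and 8.16 CPM to 5.66, 6.05 and 6.43 CPM (-0.62 ± 0.10; corrected -0.53, adjusted p = 0.0133). Neither group overlapped the other in these genes. GZMB was at 0.664 to 0.700 CPM in CTRL and 0.544 to 0.903 CPM in hnCD16, and its ranges overlapped. The death ligand TNFSF10 was called higher at 0.39 and had 0.10 with the correction (adjusted p = 0.585).

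Cytokines and chemokines had 2 members (10.5%) higher and 5 (26.3%) lower of 19, and 2 higher and 1 lower with the correction. CCR4, a chemokine receptor, rose by both analyses (0.31 and 0.27), and IL32, a cytokine of NK and T cells and the most abundant of the list, fell (-0.20 and -0.19). Immediate early genes, which respond fast to receptor signals, had 2 higher and 10 (40.0%) lower of 25 (median -0.20) and 1 higher and 3 lower with the correction (median -0.07). BTG2, an antiproliferative member of this list, had the largest fall, from 7.05, 5.75 and 6.57 CPM to 3.05, 3.40 and 2.98 CPM (-1.04 ± 0.13, adjusted p = 2.43e-05; corrected -0.94, adjusted p = 0.00385). CD69 was called higher at 0.32 and had -0.07 with the correction. NF-kB genes had 1 higher and 9 (47.4%) lower of 19 (median -0.15), and 0 higher and 1 lower with the correction (median -0.01). The one that remained was NFKB1 (-0.38 and -0.26), named for that reason after its values were seen.

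For all lists that follow, the shares to read them against are those of all 12069 genes, 24.3% called higher and 23.8% lower, and 5.92% and 5.79% with the correction. Many genes for making and breaking down protein were called higher. Of 51 proteasome genes, 39 (76.5%) were called higher and 5 (9.80%) lower, with a median of 0.25, and 19 (37.3%) were higher and 3 (5.88%) lower with the correction, with a median of 0.13. The summed level of the list was 10545, 9964 and 9396 CPM in CTRL and 12058, 11912 and 11175 CPM in hnCD16, and the groups did not overlap. Among its genes, PSMB9 and PSMB10, catalytic subunits of the immunoproteasome, rose by 0.33 ± 0.06 and 0.28 ± 0.08 without and by 0.27 and 0.35 with the correction. Scaled by library size the median was 0.14, and on the TPM scale 0.11.

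Of 20 cytosolic tRNA synthetase genes, 11 (55.0%) were higher and 3 (15.0%) lower (median 0.20), and 7 higher and 0 lower with the correction (median 0.11). TARS1, which charges threonine tRNA, rose from 332, 328 and 307 to 456, 495 and 442 CPM (0.53 ± 0.05, adjusted p = 9.82e-06; corrected 0.39, adjusted p = 0.00267). IARS1, the most abundant of the list, rose as well (0.32 and 0.27). VARS1 and FARSA, whose transcripts are 61.7% and 61.3% GC, were called lower at -0.41 and -0.35 and had -0.10 and -0.17 with the correction, neither called.

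Heat shock and chaperone genes had 17 of 28 (60.7%) higher and 4 (14.3%) lower (median 0.25), and 6 (21.4%) higher and 2 (7.14%) lower with the correction (median 0.10). HSPA8, the constitutive HSP70, rose from 4313, 4062 and 3684 CPM to 5211, 5495 and 4839 CPM (0.37 ± 0.06; corrected 0.28, adjusted p = 0.00557). HSP90AA1 was called higher at 0.41 and had 0.27 with the correction (adjusted p = 0.135). Its CTRL values of 3769, 4885 and 5001 CPM were all below the hnCD16 values of 5363, 6086 and 6748 CPM. HSPA1B, a stress-induced HSP70 with a near-identical copy and so an uncertain count, was called lower at -0.94 and had -0.69 with the correction (adjusted p = 0.0673).

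Nuclear genes of oxidative phosphorylation had 59 of 81 (72.8%) higher and 3 lower (median 0.22), and 15 (18.5%) higher and 7 (8.64%) lower with the correction (median 0.07). ATP5F1A, the alpha subunit of ATP synthase, and CYCS, cytochrome c, rose by 0.38 and 0.39 without and by 0.28 and 0.31 with it. Mitochondrial ribosomal proteins had 52 of 78 (66.7%) higher and 3 lower (median 0.21), and 16 (20.5%) higher and 3 (3.85%) lower with the correction (median 0.08). MRPL49 and MRPL4 fell by both analyses, with log2 fold changes of -0.37 and -0.29 without and -0.28 and -0.17 with it. For MRPL1 the value changed from 0.43 to -0.02.

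Cytosolic ribosomal proteins split under the correction. Without it 56 of 86 (65.1%) were called higher and 0 lower (median 0.18), and with it 17 (19.8%) were higher and 16 (18.6%) lower (median 0.02). RPLP0, the most abundant, was at 4320, 4004 and 3760 CPM in CTRL and 4860, 4769 and 4391 CPM in hnCD16 (0.21 ± 0.06; corrected 0.18, adjusted p = 0.00923). RPL22L1, whose transcript is 39.9% GC, was called higher at 0.30 and had 0.01 with the correction. On the TPM scale the median of the list was 0.03. Translation factors had 28 of 61 (45.9%) higher and 14 (23.0%) lower (median 0.10, but -0.01 with library size scaling), and 12 (19.7%) higher and 3 (4.92%) lower with the correction (median 0.02). EEF2, the elongation factor that moves the ribosome along, fell from 931, 914 and 850 to 673, 619 and 603 CPM (-0.51; corrected -0.23), while EIF2S2, a subunit of the initiation factor eIF2, rose (0.43; corrected 0.28).

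Several genes of the oxidative stress response and of iron storage and uptake rose. NRF2 is the transcription factor that switches on antioxidant genes through short sequences called antioxidant response elements. This list and the list of iron handling genes were drawn up after NQO1, PIR, SLC7A11, FTL and TFRC had been seen among the rising genes, so their counts are a description. Of 28 NRF2 target genes, 12 (42.9%) were called higher and 6 (21.4%) lower (median 0.14, but -0.02 on the TPM scale), and with the correction 8 (28.6%) were higher and 0 lower (median 0.08). Of 11 iron handling genes, 7 (63.6%) were higher and 1 lower (median 0.30), and 4 (36.4%) higher and 0 lower with the correction (median 0.16). The summed level of the iron list was 3679, 3608 and 3400 CPM in CTRL and 5070, 5104 and 4807 CPM in hnCD16. These counts and this sum include the genes that prompted the lists, and TFRC and FTL make up most of the sum. FTL is on both lists.

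SLC7A11 encodes the cystine importer that feeds glutathione synthesis and is found on both the NRF2 and the amino acid response list. Its levels were 5.52, 8.005 and 10.5 CPM in CTRL and 13.8, 15.0 and 20.4 CPM in hnCD16, without overlap but with a wide spread in each group (1.03 ± 0.16, adjusted p = 0.000139; corrected 0.92, adjusted p = 0.00458). NQO1, a quinone reductase, rose from 15.5, 14.6 and 14.8 CPM to 27.4, 26.8 and 24.98 CPM (0.82 ± 0.06, adjusted p = 5.83e-07; corrected 0.71, adjusted p = 0.00078). PIR, an iron-binding nuclear protein, rose from 32.5, 27.5 and 24.8 CPM to 49.5, 52.9 and 46.6 CPM (0.81 ± 0.09; corrected 0.68, adjusted p = 0.00129). TXNRD1, thioredoxin reductase, rose from 274, 254 and 243 CPM to 347, 351 and 323 CPM (0.40 ± 0.05; corrected 0.33, adjusted p = 0.00537). In these genes all hnCD16 libraries lay above all CTRL libraries, which for SLC7A11, NQO1 and PIR was required by their choice as strongest risers. TXN and GCLM, with 36.8% and 37.3% GC, were called higher at 0.33 and 0.16 and had -0.18 and -0.02 with the correction, neither called. KEAP1, which keeps NRF2 inactive, was called lower at -0.31 and had -0.05 with the correction.

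FTL, the ferritin light chain, was at 989, 914 and 843 CPM in CTRL and 1434, 1298 and 1282 CPM in hnCD16 (0.55 ± 0.06, adjusted p = 1.73e-05; corrected 0.54, adjusted p = 0.000163). With 56.0% GC it rose against the trend of its GC content. FTH1, the heavy chain, rose from 666, 623 and 581 CPM to 919, 900 and 801 CPM (0.49 ± 0.06; corrected 0.39). TFRC, the transferrin receptor that brings iron into the cell, rose from 1279, 1299 and 1232 CPM to 1850, 2016 and 1855 CPM (0.59 ± 0.05, adjusted p = 2.28e-06; corrected 0.48, adjusted p = 0.00267). The iron exporter SLC40A1 rose as well (0.46; corrected 0.31, adjusted p = 0.0138).

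The promoters of the NRF2 list were searched for the core of the antioxidant response element, TGACNNNGC, on both strands. RefSeq promoters on GRCh38.p14, of 300 bases from 250 before to 50 after the start, were matched to 22 of the 28 genes, and those of 7 held the core: PIR, TXNRD1, GCLM, PGD, ABCC4, EPHX1 and KEAP1. The core was present in 13.3% of all 35116 promoters. That is a share of promoters and not of genes, and several genes have more than 1 promoter, so it cannot be set against the 7 of 22 genes. The promoter of PIR is shown because PIR was the strongest riser among the 7, with the match in capitals, on the strand opposite to the gene and just after its start (chrX:15493284-15493583, minus strand).
PIR: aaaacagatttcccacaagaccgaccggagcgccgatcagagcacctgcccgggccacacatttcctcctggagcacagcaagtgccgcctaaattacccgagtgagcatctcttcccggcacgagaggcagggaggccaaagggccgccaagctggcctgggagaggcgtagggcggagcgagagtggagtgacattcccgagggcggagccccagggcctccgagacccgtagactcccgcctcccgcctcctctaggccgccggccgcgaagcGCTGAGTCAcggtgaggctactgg
The promoter of NQO1 held no match within its 300 bases, and no promoter of SLC7A11 was matched.

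Of 31 glycolysis and hypoxia genes, 9 were higher and 12 lower (median -0.02), and 1 was higher and 7 (22.6%) lower with the correction (median -0.07), beside 5.79% of all genes lower. ENO2, an enolase, fell from 11.6, 12.7 and 11.8 CPM to 7.07, 6.64 and 5.42 CPM (-0.92 ± 0.12, adjusted p = 3.88e-05; corrected -0.78, adjusted p = 0.00336). GAPDH, the most abundant of the list, was the only one called higher with the correction (0.15 ± 0.06 without, adjusted p = 0.047, and 0.21 with it). HK1, PFKL, PFKM, GPI and PKM fell by both analyses, with corrected values of -0.27, -0.25, -0.23, -0.21 and -0.18, and were named after their values were seen. PFKFB4, a regulator of glycolysis, was at -0.83 without and -0.59 with the correction (adjusted p = 0.056).

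DNA replication genes had 17 of 47 (36.2%) higher and 14 (29.8%) lower (median 0.07, but -0.04 with library size scaling), and 2 higher and 6 (12.8%) lower with the correction (median -0.01). MCM2, a subunit of the replicative helicase, fell from 120, 115 and 107 CPM to 80.5, 79.5 and 76.6 CPM (-0.54 ± 0.05, adjusted p = 9.82e-06; corrected -0.28, adjusted p = 0.00759), and MCM5, another subunit, fell as well (-0.47; corrected -0.24). PRIM1, POLE2 and PCNA, with 39.6%, 39.7% and 43.5% GC, were called higher at 0.30, 0.30 and 0.24 and had -0.06, -0.05 and -0.03 with the correction, none called. Mitosis genes went from 21 (45.7%) higher and 8 (17.4%) lower of 46 (median 0.15) to 1 higher and 4 (8.70%) lower (median -0.03). PLK1, a kinase of mitotic entry, was called lower both ways (-0.40; corrected -0.21). None of the 9 replication-dependent histone genes was called either way.

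Actin and adhesion genes had 12 of 49 (24.5%) higher and 23 (46.9%) lower (median -0.16), and 2 higher and 9 (18.4%) lower with the correction (median -0.05). ACTB, beta-actin, fell from 1516, 1409 and 1303 CPM to 1154, 1102 and 1014 CPM (-0.37 ± 0.06, adjusted p = 0.0003; corrected -0.26, adjusted p = 0.00507), and ACTG1, gamma-actin, fell by 0.33 without and 0.22 with the correction. TMSB4X, which binds free actin, was called in opposite directions, at 0.15 without and -0.19 with it (adjusted p = 0.0113). MYH9 and TLN1 had -0.54 and -0.52 without and -0.15 and -0.13 with the correction and were called only without it. Splicing factors went from 39 (46.4%) higher and 20 (23.8%) lower of 84 (median 0.15, but -0.01 on the TPM scale) to 7 higher (8.33%) and 17 lower (20.2%, median -0.03). PRPF8 and SF3B2, core spliceosome proteins, fell by both analyses (-0.55 and -0.50; corrected -0.27 and -0.30).

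Interferon-stimulated genes were called higher about as often as all genes, 10 of 41 (24.4%) beside 24.3%, and 4 (9.76%) were lower (median 0.10, but -0.01 with library size scaling). With the correction 4 (9.76%) were higher and 2 (4.88%) lower (median 0.03). RSAD2, an antiviral enzyme, rose by both analyses (0.50; corrected 0.36), as did DDX58, the RNA sensor RIG-I (0.47; corrected 0.55), whose GC content was not matched and was set to the median. ADAR, an RNA editing enzyme, fell (-0.40; corrected -0.20). In the HLA class I and peptide loading list 7 of 18 genes (38.9%) were higher and 4 (22.2%) lower, and 3 higher and 2 lower with the correction.

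Cholesterol and fatty acid synthesis genes had 13 of 36 (36.1%) higher and 17 (47.2%) lower (median -0.12), and 3 higher and 6 lower with the correction (median -0.01). SCD, which makes monounsaturated fatty acids, fell (-0.52; corrected -0.45), and ELOVL6, a fatty acid elongase, rose (0.37; corrected 0.32). Among 21 genes of the TGF-beta pathway 2 were higher and 7 (33.3%) lower, and 1 higher and 2 lower with the correction. The 2 were its target genes ID1, which fell from 6.08, 4.40 and 4.98 CPM to 2.83, 2.97 and 2.76 CPM (-0.85 ± 0.21; corrected -0.81, adjusted p = 0.00966), and ID3, which fell from 18.6, 16.8 and 14.5 CPM to 11.3, 10.05 and 10.6 CPM (-0.64 ± 0.12; corrected -0.62, adjusted p = 0.00322). ITGAE, an integrin subunit, rose (0.20; corrected 0.43, adjusted p = 0.00616). Unfolded protein response genes had 12 of 23 (52.2%) higher and 3 lower, and 3 higher and 0 lower with the correction. The amino acid response list had 8 of 22 (36.4%) higher and 7 (31.8%) lower, and 4 higher and 1 lower with it. Of 469 KRAB-type zinc finger symbols, chosen by name and not by domain, 55 (11.7%) were higher and 64 (13.6%) lower. With the correction 3 were higher and 8 lower.

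The 16 DEGs included genes of several functions. The 8 that were higher included EIF3CL, RHOU, KCNA6, CD48, SLC7A11, IMPG2 and CLEC4E, and the 8 that were lower included FSBP, LBH, FSCN1, SBK1, SALL2, BTG2 and PCGF2. With the correction 14 of the 16 were still called in the same direction, and IMPG2 (adjusted p = 0.0788) was among those that were not. RHOU, a small GTPase at chromosome 1 from 228735479 to 228746664, had the largest rise among genes above 5 CPM. It was at 5.72, 6.30 and 5.72 CPM in CTRL and 15.1, 15.3 and 13.8 CPM in hnCD16 (1.31 ± 0.09, adjusted p = 2.92e-07; corrected 1.296, adjusted p = 0.000163). LBH, a transcriptional regulator, fell from 3.32, 3.10 and 3.13 CPM to 1.41, 1.13 and 1.33 CPM (-1.297 ± 0.14; corrected -1.15, adjusted p = 0.00507). FSCN1, which bundles actin, fell from 10.3, 9.76 and 9.01 CPM to 5.39, 5.02 and 3.19 CPM (-1.09 ± 0.16; corrected -0.80).

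For some of the DEGs the call depended on single libraries. EIF3CL, a near-identical copy of EIF3C, was at 1.28, 0.600 and 1.99 CPM in CTRL and 3.16, 4.64 and 3.72 CPM in hnCD16, and its adjusted p of 0.013 became 0.0895 without CTRL replicate 2 and 0.061 without hnCD16 replicate 2. FSBP, which overlaps another gene, had an adjusted p of 0.0455 with all libraries and 0.0888 to 0.107 without CTRL replicate 2, CTRL replicate 3 or any of the hnCD16 replicates. IMPG2 had 0.0312 with all libraries and 0.0598 to 0.149 without any of the CTRL replicates, hnCD16 replicate 2 or hnCD16 replicate 3.

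By fold change alone, the 10 highest and 10 lowest called genes with a mean of at least 5 CPM and no overlap were taken as the strongest risers and fallers, out of 2622 and 2559 eligible genes. The risers were RHOU, SLC7A11, NQO1, PIR, CPVL, CHI3L2, GCSAML, STAP1, TNFRSF10D and SLC18A2. The fallers were FSCN1, ENO2, IGFBP2, GPR153, NFIC, CD4, MEX3A, KIAA0754, DLGAP4 and SV2A. Their median GC content was 42.9% and 59.0%, beside 47.6% for all genes, and with the correction 9 of each 10 kept their call. STAP1 (0.31, adjusted p = 0.093) and NFIC (-0.44, adjusted p = 0.0862) did not. IGFBP2, a binding protein of insulin-like growth factors, was the most abundant of the 20. It fell from 58.6, 57.5 and 51.2 CPM to 31.4, 30.4 and 27.2 CPM (-0.91 ± 0.08, adjusted p = 3.44e-06; corrected -0.75, adjusted p = 0.00017). CPVL, a carboxypeptidase, rose from 11.8, 11.4 and 10.8 CPM to 19.8, 20.6 and 18.1 CPM (0.78 ± 0.09; corrected 0.56), and CHI3L2, a chitinase-like protein, from 10.8, 9.46 and 9.80 CPM to 17.5, 17.3 and 15.6 CPM (0.75 ± 0.12; corrected 0.66). CD4, a T cell coreceptor, fell (-0.77; corrected -0.57, adjusted p = 0.0324).

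**Figure D4:**
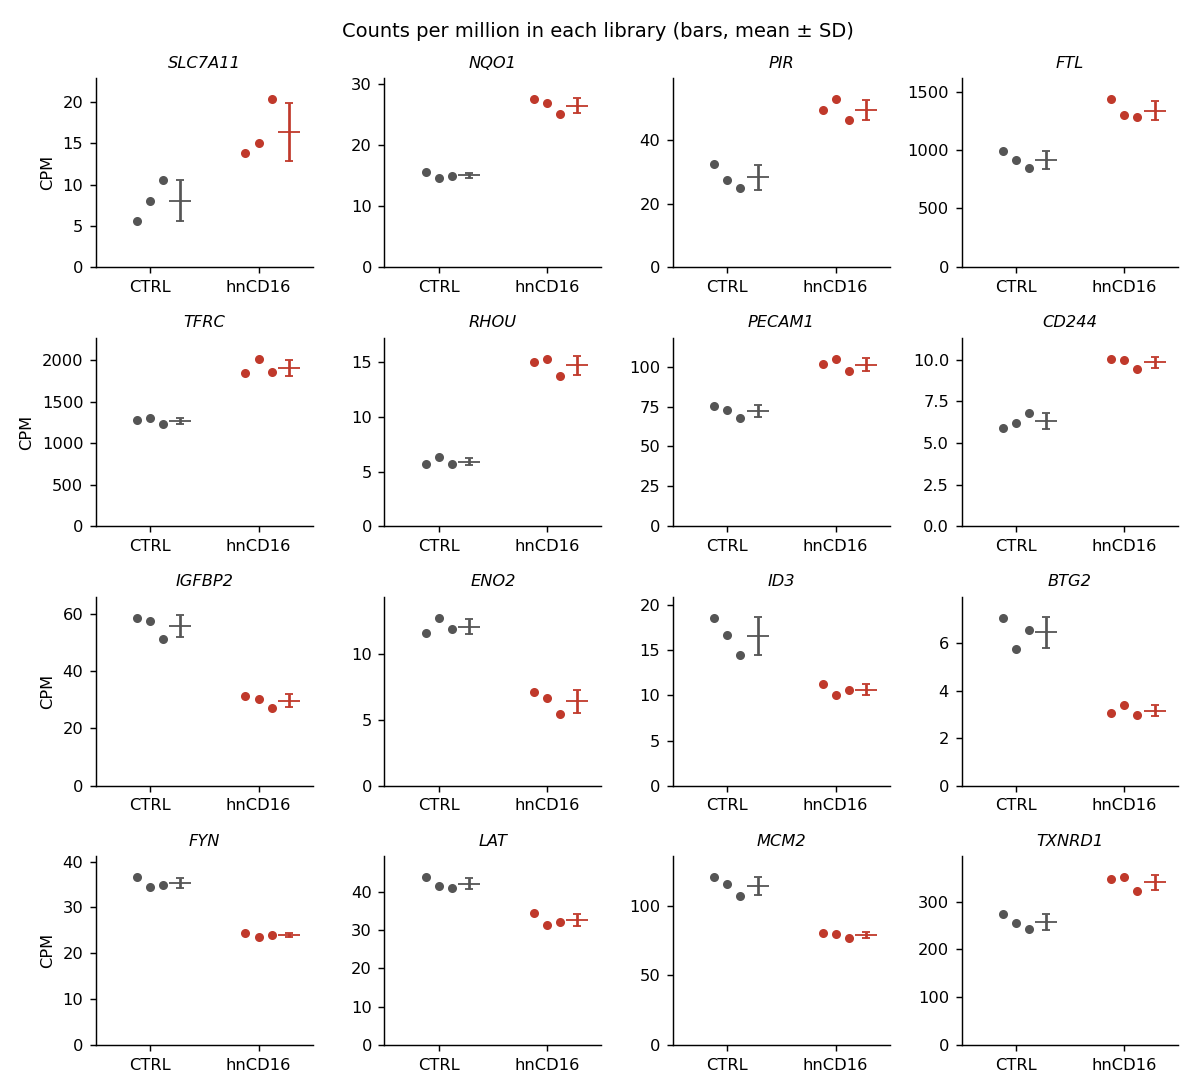
CPM (vertical axes, from 0) in each CTRL (grey) and hnCD16 (red) library for 16 genes, with the mean ± SD of 3 libraries beside the points. The genes were picked from those called, and for some, RHOU and IGFBP2 among them, the rule of choice required that the groups not overlap. In each panel the groups do not overlap, as in 52.6% of all 12069 genes. RHOU is at 5.72 to 6.30 against 13.8 to 15.3 CPM and IGFBP2 at 51.2 to 58.6 against 27.2 to 31.4 CPM.

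A few further genes that were called both ways are named after their values were seen. PECAM1, an adhesion receptor with inhibitory motifs, rose from 75.2, 72.9 and 67.9 CPM to 102, 105 and 97.0 CPM (0.49 ± 0.05, adjusted p = 1.4e-05; corrected 0.59, adjusted p = 0.000487). TMSB15A, a thymosin that binds actin, fell from 8.48, 8.36 and 7.02 CPM to 5.28, 5.51 and 5.47 CPM (-0.55 ± 0.13; corrected -1.02, adjusted p = 0.00188). PTGDR, a prostaglandin receptor, fell from 6.23, 7.35 and 5.72 CPM to 4.24, 4.27 and 3.51 CPM (-0.68 ± 0.15; corrected -0.68, adjusted p = 0.0117). The overlapping genes ZNF117 and ERV3-1-ZNF117 moved in opposite directions (-0.46 and 0.63; corrected -0.62 and 0.81), and both counts are uncertain because they share reads.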

How the data were processed

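RNA from CTRL and hnCD16 YT cells was sequenced by the authors after ribosomal RNA depletion (the labels also name oligo(dT) enrichment). Per the study's methods and the submitters' processing notes, reads were filtered with SOAPnuke and aligned to GRCh38.p13 with HISAT2 2.1.0, and genes were quantified with RSEM 1.3.1. Bowtie2 2.3.4.3 and DESeq2 1.4.5 are also named. Whether counting used strand is not given in the sources used here. The deposited expected counts are RSEM estimates per gene without normalization, which can divide reads between similar genes. The deposited TPM and FPKM values were computed by the authors from the same reads. Deposited normalized counts, group averages and transcript-level values were not used.

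Expected counts were rounded and fitted with edgeR 4.0.16 (R 4.3.3) in 1 fit of all 12 libraries in 4 groups, with TMM, filterByExpr by group and the quasi-likelihood test of hnCD16 minus CTRL. The SE is that implied by the test's statistic. A gene was called where its p, adjusted by Benjamini-Hochberg, did not exceed 0.05. CPM uses TMM library sizes, and 3 counts (0.149 to 0.163 CPM) served as the floor, which covers counting error only. GC content came from the canonical GENCODE v44 transcript on GRCh38 (17244 of 17589 genes matched; 98.8% of the 12069 genes have a value), and effective length from counts and FPKM. The correction fitted, for each library, natural splines with 5 degrees of freedom in GC content and log2 length to the deviations of log2 CPM, and genes without a GC value took the median. The curves were fitted on the more abundant genes only and applied to all, with values held within the range fitted. Scarce genes such as LBH and CD48 did not inform them. Lists were described by counts and medians and not tested as sets. All lists and the choice of genes were made with earlier results of these data known. Lists of mitochondrially encoded genes and nuclear long RNAs had no symbol in the table and are not analysed here.

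Named genes were the receptor and its partners, all DEGs, the 10 highest and 10 lowest called genes (mean of at least 5 CPM, groups not overlapping), up to 2 called genes with the largest change in each direction and the most abundant gene of each list, the 5 most abundant called genes in each direction, and the most abundant gene on each side of the count limit, and genes called with the correction were added after their values were seen. The fits were tested on simulated data. DESeq2 1.42.0, limma 3.58.1, other scalings and filters, the replicate number as a block and leaving out each library were tried as alternatives. Some genes and lists that met these rules are not reported here.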

Additional observations from a re-analysis of the deposited data

How the results depend on the processing

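Beside the 5795 genes called, glmTreat against a fold of 1.2 gave 331 calls, 73 higher and 258 lower. The GC and length correction in the fit of 6 libraries gave 1414, 715 higher and 699 lower, of which 1087 were called in the same direction without it, 59 in the opposite direction and 268 not at all. Genes called higher numbered 1483 with library size only, 953 with limma on log2(TPM + 0.1) and 1038 on log2(TPM + 1), the last with 4350 lower. The 16 DEGs became 9 with DESeq2, 28 with library size only, 2 with limma on log2(TPM + 1), 44 among genes with a mean of at least 10 counts and 9 among genes with 20 or more counts in all 6 libraries. Of 27 lists with members, 17 had more genes higher than lower, against 9 with library size only, 5 with limma on either TPM scale and 14 with the correction. Leaving out each library gave 4769 to 5624 calls (2151 to 2946 higher and 2348 to 2957 lower), 13 to 23 DEGs, 14 to 18 such lists and correlations of -0.616 to -0.509 with GC content and -0.275 to -0.0861 with log2 length. Leaving out each library with the correction, an alternative chosen after seeing the data, gave 298 to 1389 calls (138 to 781 higher and 160 to 608 lower) and 6 to 15 DEGs from 5 libraries.

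In the fit of the 6 libraries without the correction, 147 of the 157 named genes that were called kept direction and call and 10 the direction only. Of these 157 genes, 82 kept direction and call with the correction, 66 kept the direction only and 9 changed direction, while with DESeq2 144 kept both, 5 kept the direction only and 8 had no adjusted p, and with RLE scaling 156 kept both and 1 the direction only. The 9, with their corrected log2 fold changes, were SH2D1A (-0.041), CD69 (-0.067), TRAF3 (0.0081), MRPL1 (-0.019), PRIM1 (-0.065), POLE2 (-0.046), PCNA (-0.035), PSMA6 (-0.034) and TMSB4X (-0.19). ZNF207 changed to -0.0096 with library size only, to -0.047 with limma on log2(TPM + 0.1) and to -0.046 on log2(TPM + 1). The cause of these changes was not tested.

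Libraries numbered 1 and 3 resembled their same-numbered counterpart in the other group, while those numbered 2 did not. The rule that all 3 numbers must pair was therefore not met. Deviations from the group means correlated at 0.320, -0.00569 and 0.382 for numbers 1, 2 and 3 (0.636, -0.0676 and 0.730 over genes with a mean of at least 10 CPM), on average 0.232 beside -0.116 for libraries with different numbers. With the replicate number as a block, 6234 genes were called in the fit of 12 libraries and 6807 in that of 6, and 3305 (1763 higher and 1542 lower) with the block and the correction together. Without the block the same fits gave 5795, 5202 and 1414 calls. With both, 118 of the 157 named genes kept direction and call and 30 the direction only, beside 82 and 66 with the correction alone, and the same 9 changed direction: SH2D1A (-0.040), CD69 (-0.068), TRAF3 (0.0095), MRPL1 (-0.019), PRIM1 (-0.065), POLE2 (-0.046), PCNA (-0.035), PSMA6 (-0.034) and TMSB4X (-0.19).

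With 3 libraries in a group, the exact permutation test of a value per library cannot go below p = 0.1 and so cannot pass 0.05.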
